A study of Mus musculus with 12 samples.

Results

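Interleukin-2 (Il2), interleukin-3 (Il3), granulocyte-macrophage colony-stimulating factor (Csf2) and leukaemia inhibitory factor (Lif) are growth-factor cytokines that activated CD4+ T cells make. They were taken as every probe set annotated to 1 of these genes alone on the Affymetrix Mouse Genome 430 2.0 array, whatever its values. The rule gave 4 of the 18193 genes named on the array and 5 of its 45037 probe sets, namely 1449990_at for Il2, 1450566_at for Il3, 1427429_at for Csf2, and 1421207_at and 1450160_at for Lif. A further probe set, 1447917_x_at, is annotated to Il2 together with Ntan1 and was left out. Probe sets of a gene share its RNA and are not replicates, and 1421207_at, the brighter of the Lif probe sets, stood for that gene.

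The 12 arrays held CD4+ T cell RNA of mice in 4 groups of 3, in a series on Th17 cells, the helper T cells that make interleukin-17. SKG mice, which have an altered Zap70, the kinase of the T cell receptor, on a BALB/c background, were set against BALB/c mice (BALB), both aged 40 weeks. The cells of both were stimulated with PMA and ionomycin, which raise protein kinase C activity and calcium without the receptor. They were lymph node cells without the folate receptor FR4, but the label of BALB replicate 1 names CD4+ cells of spleen and lymph node with no FR4 selection. The other groups were spleen CD4+ T cells 7 days after transfer, labelled with an age of 7 weeks. IFN-γ-deficient BALB/c T cells went into RAG2-deficient BALB/c hosts (IFN-γ-deficient transfer), and were set against IL-6-deficient BALB/c T cells in hosts deficient for both IL-6 and RAG2 (IL-6-deficient transfer). RAG2-deficient hosts have no T or B cells of their own but keep innate immune cells, and the hosts of the IL-6-deficient transfer also lacked IL-6 in those cells. The transfer labels name no stimulation. Whether replicates are separate animals is not labelled, so p-values cover the spread among these arrays alone, and that spread may be technical.

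A T cell that meets its antigen raises calcium and kinase signals. These bring NFAT, AP-1 and NF-κB factors to cytokine promoters and enhancers, and AU-rich elements in the messages then limit how long they last. IL-2 acts back on T cells through the chains Il2ra, Il2rb and Il2rg and the kinases Jak1 and Jak3 to activate STAT5. IL-3 and GM-CSF share the receptor chain encoded by Csf2rb and signal through Jak2 and STAT5 in myeloid cells. LIF binds Lifr with Il6st, the chain that the IL-6 receptor also uses, and activates STAT3. GM-CSF from T cells is required for several mouse models of autoimmune tissue inflammation, and IL-3 is a growth factor of mast cells and basophils.

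The 250 bases before each start site are shown because transcripts of these genes are induced together in activated T cells, and Il3 and Csf2 lie side by side. They are the RefSeq sequences of the GRCm38.p6 assembly, 5′ to 3′ on the gene's strand, and all 4 genes matched. Capitals mark the matches to the searched motifs on either strand.
Il2 (chr3:37125955-37126204, minus strand): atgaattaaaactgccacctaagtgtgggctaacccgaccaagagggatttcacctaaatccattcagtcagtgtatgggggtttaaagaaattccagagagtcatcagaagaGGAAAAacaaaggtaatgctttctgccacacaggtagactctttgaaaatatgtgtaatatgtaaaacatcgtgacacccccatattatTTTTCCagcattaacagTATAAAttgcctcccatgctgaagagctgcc
Il3 (chr11:54267280-54267529, minus strand): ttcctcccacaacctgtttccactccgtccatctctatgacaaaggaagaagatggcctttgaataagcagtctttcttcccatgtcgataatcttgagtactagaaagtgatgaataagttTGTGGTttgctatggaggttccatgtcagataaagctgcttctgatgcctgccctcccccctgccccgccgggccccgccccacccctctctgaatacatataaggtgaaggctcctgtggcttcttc
Csf2 (chr11:54249900-54250149, minus strand): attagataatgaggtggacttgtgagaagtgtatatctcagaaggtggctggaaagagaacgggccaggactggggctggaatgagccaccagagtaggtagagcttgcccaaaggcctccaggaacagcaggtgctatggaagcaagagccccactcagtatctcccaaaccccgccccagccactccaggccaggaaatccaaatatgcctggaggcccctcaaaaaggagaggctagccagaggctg
Lif (chr11:4257318-4257567, plus strand): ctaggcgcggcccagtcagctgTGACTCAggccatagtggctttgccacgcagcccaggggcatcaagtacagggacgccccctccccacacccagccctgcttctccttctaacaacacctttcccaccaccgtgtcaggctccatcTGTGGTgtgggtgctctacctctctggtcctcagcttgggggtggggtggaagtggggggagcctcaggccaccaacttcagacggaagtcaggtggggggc
The motifs searched were the NFAT core GGAAAA, the AP-1 site TGANTCA, the RUNX site TGTGGT, the TATA box TATAAA and the NF-κB consensus. Il2 held 2 NFAT cores, the downstream copy on the opposite strand, and 1 TATA box. Il3 held 1 RUNX site, Lif held 1 AP-1 site and 1 RUNX site, and no motif of the 5 was found in the Csf2 window. Over all 32851 promoters of the table, windows of the same length held an NFAT core in 20.4%, an AP-1 site in 6.75%, a RUNX site in 14.0%, a TATA box in 12.4% and an NF-κB consensus in 5.0%. A match here is a description of the letters and not a bound site. Only these forms of the motifs were searched, in 250 bases, so no match does not show that a site is absent.

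Several libraries stood apart or went against their labels. All 12 arrays are labelled female, but Xist, the X-inactivation transcript, was at 27.0 to 29.5 on the 3 IFN-γ-deficient transfer arrays and 29.1 on IL-6-deficient transfer replicate 3, against 1499.1 to 4041.2 on the other 8. The Y-linked gene Eif2s3y was at 862.5 to 1380.5 on those 4 arrays and at 0.4 to 8.5 on the others. In the transfer comparison this split follows the groups except for IL-6-deficient replicate 3, so the transfer values of the 4 cytokines are also given on the 4 low-Xist arrays. Replicate 3 of both transfer groups had actin 3′ to 5′ ratios of 3.81 and 5.13, against 1.60 to 1.67 in their replicates 1 and 2, a measure of RNA degradation or short labelling. The same ratio was 1.93 to 2.63 in SKG cells and 2.95 to 3.98 in BALB cells, and its part in any result was not tested. The Ifng probe set, the gene the transferred cells lack by label, was at 454.7, 744.1 and 764.1 in the IFN-γ-deficient transfer and at least 11967 in the IL-6-deficient one, while Il6 was at 7.4, 12.4 and 87.0 in the IFN-γ-deficient transfer and 35.5, 40.6 and 201.1 in the IL-6-deficient one. Where these probe sets lie relative to the deleted parts is not given, so they check little. Summed over 6 CD4+ T cell markers, deposited intensity was 7556 to 10970 in SKG cells, 9143 to 12110 in BALB cells, 10647 to 12074 in the IFN-γ-deficient transfer and 9469 to 12180 in the IL-6-deficient transfer.

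Il2, the T cell growth factor, stayed within a narrow range on all 12 arrays. Its deposited intensity was 8165.7, 8582.0 and 14712.9 in SKG replicates 1, 2 and 3, against 8265.9, 8239.5 and 13737.9 in BALB replicates 1, 2 and 3. It was 9847.4, 8962.7 and 11269.9 in the IFN-γ-deficient transfer, against 9639.1, 9314.2 and 10166.4 in the IL-6-deficient transfer. On this scale the groups overlapped in both comparisons, and replicate 3 was the highest array of every group. The Il2 probe set ranked between 94 and 169 from the top of 45037 on every array, so it sat near the top of the scale, and whether it was saturated was not tested.

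Il3 differed between groups and, within SKG, between arrays. Its deposited intensity was 4456.8, 3396.9 and 270.2 in SKG replicates 1, 2 and 3, against 528.2, 658.7 and 882.9 in BALB replicates. SKG replicates 1 and 2 lay above every BALB array and SKG replicate 3 below every BALB array. In the transfer groups it was 2744.8, 2174.9 and 3400.8 with IFN-γ-deficient cells, against 9942.8, 9635.4 and 10637.9 with IL-6-deficient cells, with no overlap.

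Csf2, which encodes GM-CSF, had a deposited intensity of 5534.1, 4707.3 and 2625.4 in SKG replicates 1, 2 and 3, against 600.6, 742.0 and 938.6 in BALB replicates. Every SKG array exceeded every BALB array, and SKG replicate 3 was again the lowest of its group. In the IFN-γ-deficient transfer it was 4000.8, 3695.4 and 4197.2, against 11283.4, 10301.7 and 9851.7 in the IL-6-deficient transfer, also with no overlap. In the IL-6-deficient transfer the Il3 and Csf2 probe sets ranked between 75 and 171 from the top of each array, as near the top of the scale as Il2.

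Lif, a cytokine of the IL-6 family, had a deposited intensity of 2947.9, 2741.4 and 3152.4 in SKG replicates 1, 2 and 3, against 4566.7, 4787.9 and 5710.9 in BALB replicates. All SKG arrays lay below all BALB arrays. It was 296.2, 252.6 and 926.2 in the IFN-γ-deficient transfer, against 633.6, 568.8 and 2027.2 in the IL-6-deficient transfer. Replicate 3 was the highest array in both transfer groups, and the groups overlapped. The dimmer Lif probe set read 141.6, 94.1 and 93.9 in SKG cells, against 158.1, 189.6 and 171.8 in BALB cells. It read 18.9, 3.9 and 45.2 in the IFN-γ-deficient transfer, against 29.9, 14.3 and 72.9 in the IL-6-deficient transfer, and so placed the groups in the same order.

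**Figure D1:**
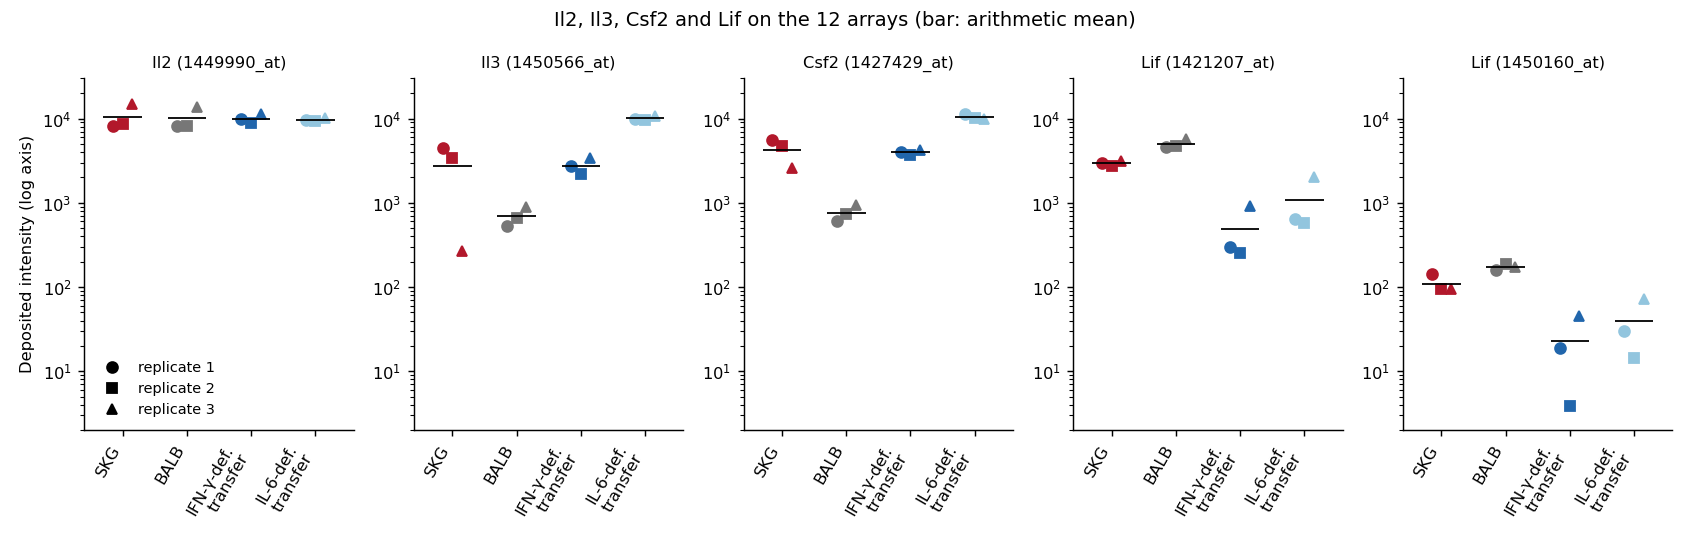
Deposited intensity (log axis, linear units) of the 5 probe sets of Il2, Il3, Csf2 and Lif on the 12 arrays, by group. Point shape gives the replicate number and the bar the arithmetic mean of 3 arrays. SKG replicate 3 reads 270.2 for Il3, and replicate 3 is the highest array of both transfer groups for Lif.

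With the 12 arrays quantile normalized together as log2(intensity + 16), the order of the groups differed from gene to gene. Il3 averaged 10.76 ± 2.42 in SKG cells and 9.38 ± 0.21 in BALB cells, and 11.49 ± 0.30 in the IFN-γ-deficient and 13.26 ± 0.020 in the IL-6-deficient transfer (mean ± SD, n = 3 as for all such values). The IL-6-deficient transfer was highest and separate from the IFN-γ-deficient transfer below it, while SKG cells, next in the order, overlapped the groups on both sides. Csf2 averaged 12.07 ± 0.86 in SKG cells and 9.52 ± 0.18 in BALB cells, and 12.05 ± 0.061 in the IFN-γ-deficient and 13.32 ± 0.16 in the IL-6-deficient transfer. Here too the IL-6-deficient transfer was highest and BALB cells lowest, each apart from its neighbour, and the middle pair overlapped. Lif had another order, with 11.59 ± 0.21 in SKG cells and 12.21 ± 0.13 in BALB cells, and 8.76 ± 1.11 in the IFN-γ-deficient and 9.75 ± 1.16 in the IL-6-deficient transfer. BALB cells were highest, SKG cells next, and the transfer groups lowest and overlapping. Il2 averaged 13.35 ± 0.061 in SKG cells and 13.20 ± 0.055 in BALB cells, and 13.32 ± 0.063 in the IFN-γ-deficient and 13.21 ± 0.029 in the IL-6-deficient transfer. SKG cells overlapped the IFN-γ-deficient transfer, and the IL-6-deficient transfer overlapped BALB cells, with a gap between these pairs. SKG and BALB cells differ from the transfer cells in age, tissue, labelled stimulation, genotype and transfer into hosts at once. FR4 selection, named for most SKG and BALB arrays, and low Xist, seen on some transfer arrays, also go with this split. These cannot be told apart here.

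In SKG against BALB cells Csf2 was higher and Lif lower, while Il3 and Il2 did not pass the test. Values are log2 fold changes of SKG over BALB from limma on these 6 arrays, normalized together, with Benjamini-Hochberg adjustment over 12075 genes. Csf2 averaged 12.09 ± 0.86 in SKG cells and 9.53 ± 0.18 in BALB cells, a rise of 2.56 ± 0.35 (SE), which is 5.90-fold (95% interval 1.76 to 3.36 on the log2 scale, limma adjusted p = 0.0014). Lif averaged 11.60 ± 0.21 in SKG cells and 12.24 ± 0.13 in BALB cells and fell by 0.63 ± 0.13 on the log2 scale (limma adjusted p = 0.0071). Its dimmer probe set had a log2 fold change of -0.57 ± 0.25, which did not pass (limma adjusted p = 0.15 over all probe sets). The Lif call was also lost when all 12 arrays shared the estimate of the spread (limma adjusted p = 0.45). In RNA of a bulk population, fewer cells making a transcript and less transcript per cell cannot be told apart.

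Il3 averaged 10.77 ± 2.44 in SKG cells and 9.39 ± 0.21 in BALB cells, a difference of 1.38 ± 0.95 with a 95% interval of -0.78 to 3.53 (limma adjusted p = 0.33). Without SKG replicate 3 it was 2.77 (limma adjusted p = 2.23e-05), so 1 array decided this value. Without SKG replicate 1 it was 0.58. Il2 averaged 13.34 ± 0.057 in SKG cells and 13.21 ± 0.050 in BALB cells, a difference of 0.13 ± 0.071 with a 95% interval of -0.028 to 0.29 (limma adjusted p = 0.20). On the normalized scale the Il2 groups did not overlap, unlike on the deposited scale, so groups of 3 arrays can lie apart with no call. Of all genes tested in this comparison, 27.5% passed, 15.7% higher and 11.8% lower in SKG cells, so 2 of 4 genes passing is to be read against a comparison in which calls were common.

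In the IFN-γ-deficient against the IL-6-deficient transfer, Il3 and Csf2 were lower and Il2 and Lif did not pass. Il3 averaged 11.48 ± 0.30 in the IFN-γ-deficient transfer and 13.26 ± 0.023 in the IL-6-deficient transfer, and fell by 1.78 ± 0.15 on the log2 scale (fold change 0.291, 95% interval -2.13 to -1.43, limma adjusted p = 0.0085). Csf2 averaged 12.02 ± 0.062 in the IFN-γ-deficient transfer and 13.32 ± 0.17 in the IL-6-deficient transfer, and fell by 1.31 ± 0.10 (fold change 0.404, 95% interval -1.55 to -1.06, limma adjusted p = 0.0085). Of 12262 genes tested here 0.114% passed, and 0.0489% passed as lower in the IFN-γ-deficient transfer, 6 genes of which Il3 and Csf2 were 2.

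The size of both falls held while their calls depended on the arrays and on the model of the spread. With all 12 arrays in 1 fit neither passed (limma adjusted p = 1.0 for Il3 and 0.21 for Csf2), and without the intensity trend Csf2 did not (0.065). Without IFN-γ-deficient replicate 1 the limma adjusted p was 0.065 for each gene, without IL-6-deficient replicate 1 it was 0.076 for Il3 and 0.050 for Csf2, just above the threshold, and without IL-6-deficient replicate 2 it was 0.069 for each. Csf2 also lost its call without IFN-γ-deficient replicate 2 (limma adjusted p = 0.086). With 1 array at a time left out the log2 fold change stayed between -1.90 and -1.64 for Il3 and between -1.37 and -1.24 for Csf2. On the 4 low-Xist arrays IL-6-deficient replicate 3 alone stands for its group and is assumed to vary like the other. Il3 was at -1.83 and Csf2 at -1.16 there, given as effect sizes alone. Whether either call holds without the Xist split was not tested. That array also had the highest actin 3′ to 5′ ratio, 5.13, so Xist and this ratio cannot be told apart there. The part of either in the 2 falls was not tested.

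Lif averaged 8.76 ± 1.09 in the IFN-γ-deficient transfer and 9.74 ± 1.14 in the IL-6-deficient transfer, a difference of -0.98 ± 0.69 with a 95% interval of -2.60 to 0.64 (limma adjusted p = 1.0). In each same-numbered pair the IFN-γ-deficient array was the lower, and with the replicate number as a block Lif fell by 0.98 ± 0.098 (limma adjusted p = 0.0019), in a fit in which 1.79% of genes passed. The dimmer Lif probe set had a log2 fold change of -0.58 ± 0.54. On the low-Xist arrays Lif was at -2.33, more than 1.5 times its value on all arrays, and without IL-6-deficient replicate 3 it was at -0.32. Il2 averaged 13.33 ± 0.072 in the IFN-γ-deficient transfer and 13.20 ± 0.032 in the IL-6-deficient transfer. The difference was 0.13 ± 0.068 with a 95% interval of -0.033 to 0.29 (limma adjusted p = 1.0), and 0.15 on the low-Xist arrays.

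**Figure D2:**
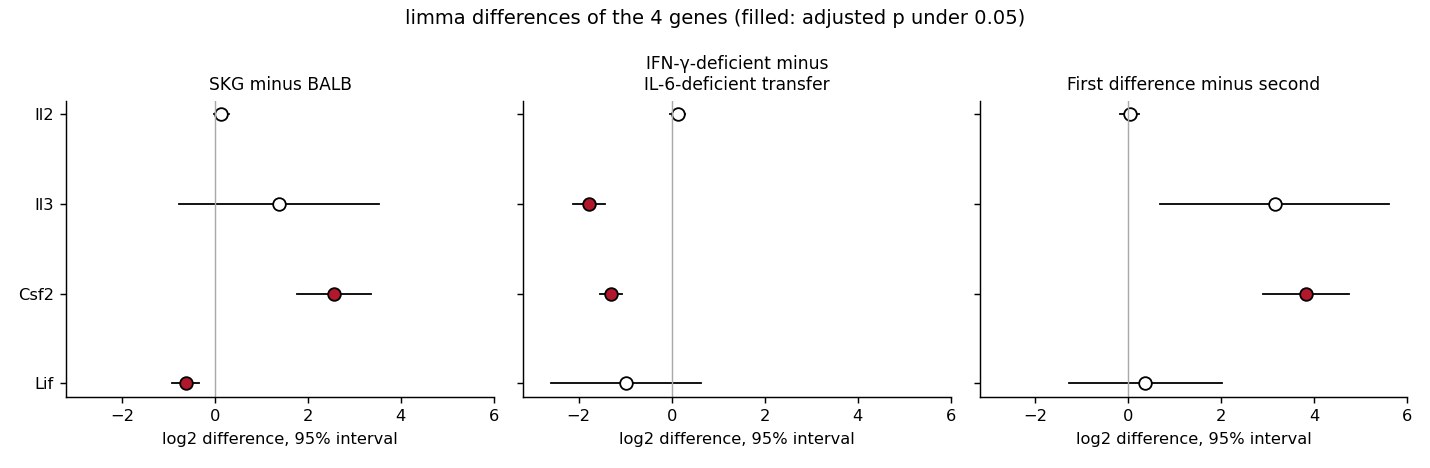
Log2 differences of Il2, Il3, Csf2 and Lif with 95% intervals from limma, for SKG minus BALB (left), IFN-γ-deficient minus IL-6-deficient transfer (middle), and the first difference minus the second (right). Filled points passed an adjusted p of 0.05. Csf2 lies at 2.56 in the left panel and at -1.31 in the middle panel.

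Whether the 2 comparisons differed was tested as a contrast over all 12 arrays, in which 8.2% of genes passed. For Csf2, SKG minus BALB exceeded the transfer difference by 3.83 ± 0.43 (95% interval 2.91 to 4.75, limma adjusted p = 0.00034), and by 3.70 on the low-Xist transfer arrays. For Il3 the value was 3.15 ± 1.13 (limma adjusted p = 0.11). It passed with the replicate block (limma adjusted p = 0.026), where 25.6% of genes passed, and it was 4.52 without SKG replicate 3 (3.8e-06). For Lif the value was 0.36 ± 0.76 (limma adjusted p = 0.83) and for Il2 0.033 ± 0.095 (0.88), with 95% intervals of -1.29 to 2.01 and -0.17 to 0.24. On the low-Xist transfer arrays these values were 1.70 for Lif, over 1.5 times that on all arrays, 3.18 for Il3 and 0.019 for Il2. All low-Xist values are given as effect sizes alone.

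The arrays of a group did not deviate alike for the 4 genes. Replicate 3 minus the mean of replicates 1 and 2, over 12176 genes normalized together, was -4.18 for Il3 in SKG cells, the lowest of all genes there, and -1.47 for Csf2, the 56th lowest. Lif was at -0.35 and Il2 at 0.088 on the same array pair, so SKG replicate 3 was not low for every cytokine. Among other T cell cytokines it was also low for Il10 (-3.77), Il13 (-2.45), Il9 (-2.29) and Il5 (-1.87), but not for Il17a (0.17) or Tnf (0.37). BALB replicate 3 was likewise low for Il13 (-2.43, the lowest gene of its group), Il5 (-1.12) and Il10 (-0.94), while for Il3 and Csf2 it was at 0.21 and 0.14. In the transfer groups the same quantity for Lif was 1.92 with IFN-γ-deficient cells and 2.00 with IL-6-deficient cells, the 41st and the 56th highest of all genes. Some other T cell cytokines were also high there, in the same group order, with Il10 at 2.16 and 2.24 and Il6 at 2.17 and 2.27. Il21 was at 2.09 and 2.12 and Il13 at 1.64 and 1.94. Others were less even, with Il9 at 1.53 and 3.47, Il5 at 1.08 and 2.88 and Il4 at 2.69 and 1.03. Il17a was at 0.63 and 1.82, Tnf at 1.30 and 0.74, Il24 at 0.48 and 1.32 and Tnfsf11 at 0.46 and 0.042. Lta was low, at -0.85 and -1.19, and Ifng was at 0.54 and -0.039. For Csf2 the same quantity was 0.072 and -0.24 in the transfer groups, and for Il3 0.45 and -0.0085. Il2 stayed within 0.1 of 0 in all 4 groups. The transfer replicates 3 are the arrays with the high actin ratios, whose part in the Lif values was not tested.

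**Figure D3:**
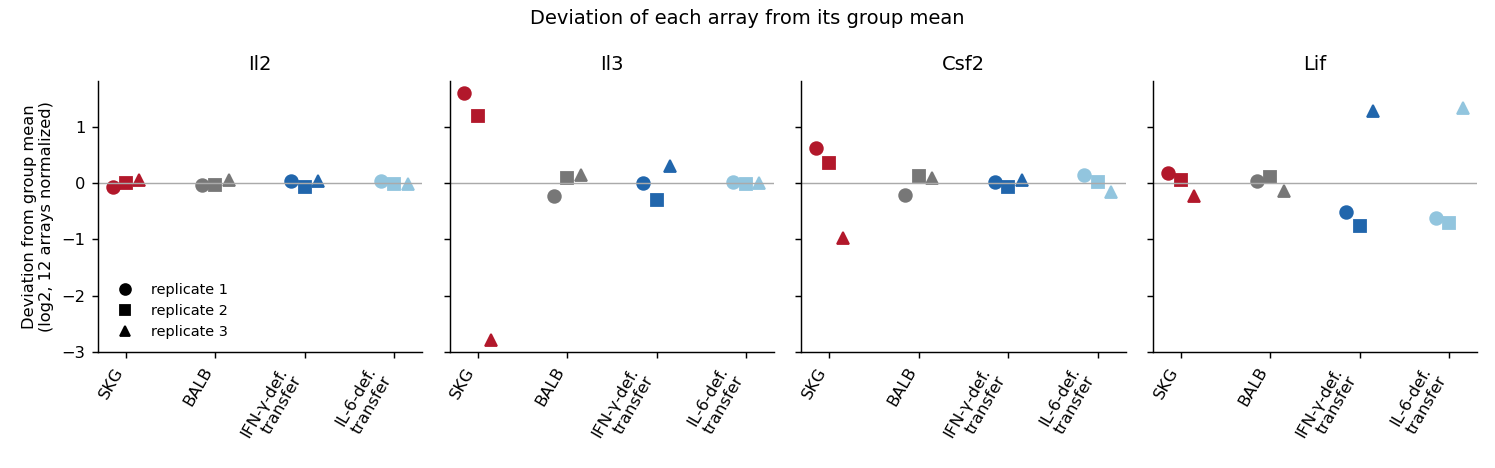
Deviation of each array from its group mean (log2, 12 arrays normalized together) for Il2, Il3, Csf2 and Lif, by group, with point shape for the replicate number. SKG replicate 3 lies far below its group for Il3 and below it for Csf2, and replicate 3 of both transfer groups lies above its group for Lif.

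Il3 and Csf2 are adjacent on mouse chromosome 11, and their differences were set beside those of the protein-coding genes around them in the GRCm38.p6 gene order. P4ha2, a collagen prolyl hydroxylase subunit on the Csf2 side, had a log2 fold change of -0.77 ± 0.32 in SKG over BALB cells (limma adjusted p = 0.11, blocked 0.033). Acsl6, an acyl-CoA synthetase on the Il3 side, was at 0.81 ± 0.33 (0.10). Beyond these, Irf1, an interferon-responsive transcription factor, fell by 1.13 ± 0.096 (limma adjusted p = 0.00016), Fnip1 fell by 1.77 ± 0.23, Cdc42se2 fell by 0.97 ± 0.13 and Pdlim4 fell by 2.41 ± 0.59. No tested neighbour in this stretch other than Csf2 passed as higher in SKG cells. In the IFN-γ-deficient transfer Acsl6 was at -1.29 ± 0.38 (limma adjusted p = 0.79, and 0.039 with the block), P4ha2 was at -0.43 ± 0.39, and no tested neighbour besides Il3 and Csf2 themselves passed.

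**Figure D4:**
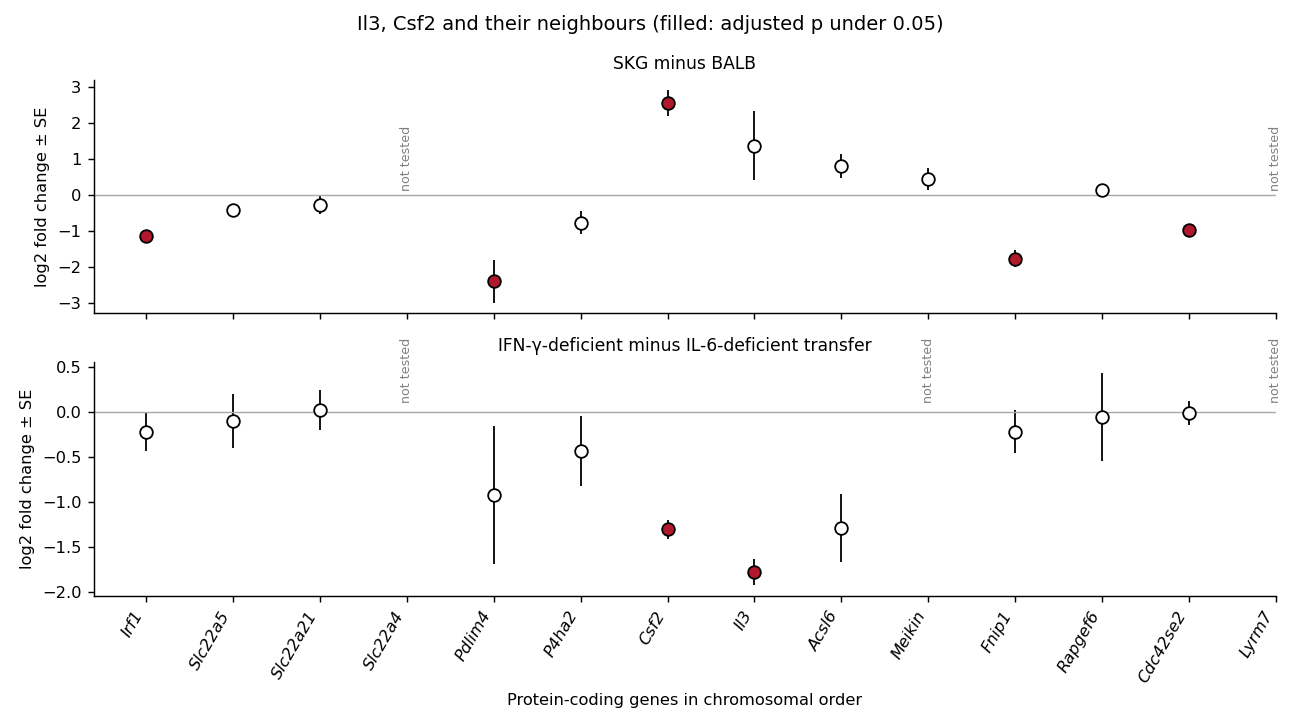
Log2 fold change ± SE from limma of Csf2, Il3 and the protein-coding genes around them in chromosomal order, for SKG over BALB (top) and IFN-γ-deficient over IL-6-deficient transfer (bottom). Filled points passed an adjusted p of 0.05. Csf2 is the only filled point above 0 at the top, and Csf2 and Il3 are the only filled points at the bottom.

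Il2 lies beside Il21, a cytokine of follicular helper and Th17 cells, on chromosome 3. In SKG cells Il21 rose by 3.25 ± 0.17 (limma adjusted p = 1.8e-05) while Il2 differed by 0.13. The nearest tested gene on the other side, 4932438A13Rik, fell by 1.25 ± 0.18 (limma adjusted p = 0.0017), and further out Exosc9 rose by 1.17 ± 0.18 and Cetn4 by 1.41 ± 0.25. In the transfer comparison Il21 was at 1.29 ± 0.74 (limma adjusted p = 1.0, and 8.8e-05 with the block). Lif lies beside Osm, another cytokine that uses Il6st, which was at 0.56 ± 0.21 in SKG over BALB cells (limma adjusted p = 0.085) and at 0.059 ± 0.19 in the transfer comparison. On its other side the nearest tested gene, Mtmr3, fell by 0.68 ± 0.21 in SKG cells (0.041). Also around Lif, Ccdc157 fell by 0.95 ± 0.21, while Zmat5 rose by 0.89 ± 0.22 and Ascc2 rose by 0.60 ± 0.18.

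The genes whose levels followed each cytokine most closely were found by Pearson correlation over the 12 arrays, which share the 4 groups. For Csf2 they were Ifitm2 (0.979), an interferon-induced membrane protein gene, Tmem29 (0.977) and Fam76a (0.965). Ifitm2 averaged 8.89 ± 0.88 in SKG cells, 6.34 ± 0.15 in BALB cells, 8.55 ± 0.27 in the IFN-γ-deficient transfer and 10.55 ± 0.16 in the IL-6-deficient transfer on the log2 scale. This is the group order of Csf2, which its choice by correlation favours, so it is not a separate result. For Il3 they were Chsy1 (0.955), a chondroitin sulfate synthase, Fam76a (0.944) and Mid1ip1 (0.940). For Lif they were Slc20a1 (0.981), a phosphate transporter, Ablim1 (0.979) and Msl2 (0.978). For Il2 they were Serpinb1a (0.876), 5830411N06Rik (0.875) and the chemokine gene Ccl20 (0.873), although Il2 itself moved little. Between the cytokines r was 0.881 for Il3 with Csf2, -0.584 for Csf2 with Lif and -0.486 for Il3 with Lif.

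The genes around these cytokines were described by lists, as counts and medians with no test of a list. In SKG against BALB cells the median log2 fold change of all genes tested was 0.057, and 15.7% of them passed as higher and 11.8% as lower. Of 7 tested receptor chains 2 rose and 0 fell (1 at an unadjusted p under 0.05, Il6st), with a median of 0.24. These were the IL-2 receptor chains Il2ra, which rose by 0.99 ± 0.17, and Il2rb, which rose by 0.95 ± 0.30 (limma adjusted p = 0.0030 and 0.041). Of 7 receptor kinases and STATs 3 rose and 1 fell, with a median of -0.15. Jak3 rose by 0.90 ± 0.27, Tyk2 by 0.84 ± 0.16 and Jak2 by 0.34 ± 0.082, while Stat5a fell by 0.71 ± 0.12. Of 10 feedback and target genes of STAT signalling 1 rose and 3 fell, with a median of 0.15. Socs2, a STAT5-induced inhibitor of cytokine signalling, rose by 2.06 ± 0.18 (limma adjusted p = 0.00018). Its relative Socs1 fell by 0.98 ± 0.28, the survival gene Bcl2l1 by 0.66 ± 0.17 and Myc by 0.55 ± 0.12. The shares of these 3 short lists that passed, 2 of 7, 4 of 7 and 4 of 10, stand beside 27.5% of all genes. With the replicate block, where 34.6% of all genes passed, Il6st (-0.64 ± 0.25) and Stat5b (-0.49 ± 0.18) also passed as lower (limma adjusted p = 0.037 and 0.022).

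More of the factors that act on cytokine genes fell than rose in SKG cells, to be read beside the 11.8% of all genes that fell and the 15.7% that rose. Of 17 tested activating factors 9 fell and 1 rose, with a median of -0.63. The 1 that rose was Egr1, by 0.88 ± 0.13 (limma adjusted p = 0.0017). The AP-1 gene Jun fell by 2.21 ± 0.18, Fosb fell by 1.94 ± 0.22, Fosl1 fell by 1.74 ± 0.24 and Fos fell by 1.26 ± 0.17 (limma adjusted p at most 0.0014). Jund also fell, by 0.91 ± 0.15, while the AP-1 genes Junb (-9.64e-05 ± 0.16) and Fosl2 (-0.42 ± 0.15) did not pass. Of 6 repressors of Il2 transcription 1 rose and 2 fell, with a median of -0.14. Prdm1, which encodes Blimp-1, rose by 1.75 ± 0.33, while Tob1 fell by 1.52 ± 0.30 and Zeb1 by 0.81 ± 0.15. Of 8 mRNA decay and stability factors 4 fell and 0 rose (1 at an unadjusted p under 0.05), with a median of -0.39. They were the Regnase-1 gene Zc3h12a, which fell by 1.17 ± 0.21, the Roquin-1 gene Rc3h1 by 0.82 ± 0.14, and Zfp36l2 and Zfp36, whose proteins bind AU-rich elements, by 0.79 ± 0.12 and 0.65 ± 0.15. With the replicate block Nfatc2, Ikzf3 and Khsrp also passed as higher and Fosl2 as lower (limma adjusted p = 0.023, 0.0031, 0.0086 and 0.049), so that 2 of 6 repressors rose and 2 fell.

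Of 13 other cytokine genes of CD4+ T cells 11 rose and 0 fell in SKG cells (0 also at an unadjusted p under 0.05, and 1, Tnf, with the replicate block), with a median of 2.52. Il17a rose by 4.90 ± 0.25, Il4 by 4.25 ± 0.31, Il9 by 3.81 ± 0.55 and Il21 by 3.25 ± 0.17 (limma adjusted p at most 0.0016). Tnf was at -0.30 ± 0.14 (limma adjusted p = 0.14, blocked 0.021). Csf2 also rose in this comparison, while Lif fell and Il2 did not pass. Without BALB replicate 1, the array without FR4 selection, 1 receptor chain and 1 kinase or STAT gene rose in place of 2 and 3. In that fit 9 other cytokines rose in place of 11. There 8 activating factors fell in place of 9, and 2 feedback genes fell in place of 3. Without SKG replicate 3, 1 receptor chain and 1 other cytokine also fell, and the counts that rose became 2 feedback genes, 2 repressors and 1 decay factor.

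In the transfer comparison 0 genes of the receptor, kinase, feedback, activating, repressor and decay lists passed. Of all genes tested 0.114% passed there, so 0 calls in short lists is near that share. The medians of these lists lay between -0.17 and 0.043, beside 0.0038 for all genes tested. At an unadjusted p under 0.05 there was 1 gene in these lists, the decay factor Hnrnpd, at -0.30 ± 0.095 (limma adjusted p = 0.87). Other leading values were -0.34 ± 0.15 for Nfatc1, 0.28 ± 0.13 for Ets1, -0.21 ± 0.12 for Stat3, 0.37 ± 0.22 for Socs2, 0.31 ± 0.23 for Ikzf3 and 0.39 ± 0.36 for the GM-CSF receptor chain Csf2ra. With the replicate block, where 1.79% of all genes passed, 1 activating factor, Fos, and 1 repressor, Crem, fell. The other 4 of these lists still had 0. Of 13 other cytokine genes 1 passed, Ifng, which fell by 4.16 ± 0.22 (limma adjusted p = 0.0011), and with the block 6 fell and 2 rose. Il17a was at 2.39 ± 0.49 (limma adjusted p = 0.38) and Il13 at -3.05 ± 0.64 (0.40), and both passed with the block (0.00075 and 3.5e-06). Without IFN-γ-deficient replicate 3, 2 of these cytokines fell, and without IL-6-deficient replicate 3 1 also rose.

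**Figure D5:**
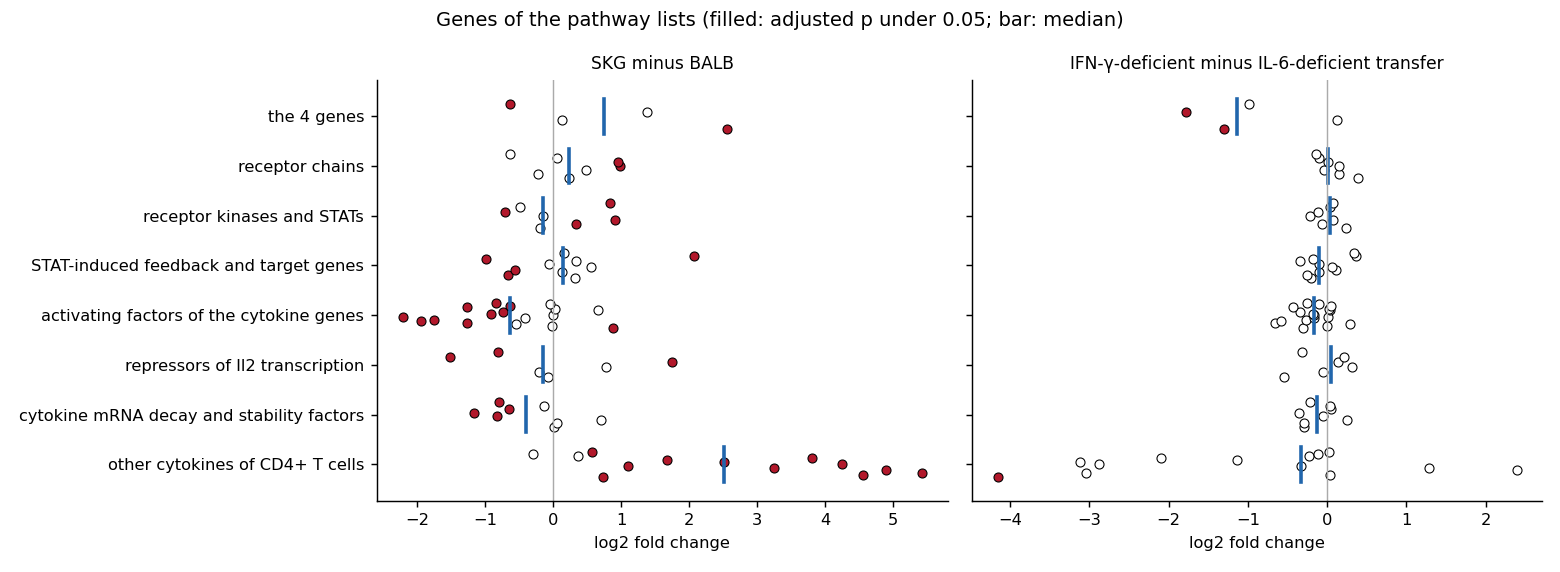
Log2 fold changes from limma of the genes in each list, for SKG over BALB (left) and IFN-γ-deficient over IL-6-deficient transfer (right). Filled points passed an adjusted p of 0.05 and the bar is the list's median. At the left 9 of 17 activating factors are filled below 0 and 11 of 13 other cytokines are filled above 0, and at the right Il3, Csf2 and Ifng are the filled points.

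Markers of other cells moved with some groups. Of 4 tested B cell markers 1, Ighm, rose in SKG cells by 1.93 ± 0.44, and the summed intensity of 5 such markers was 3418 to 5585 in SKG cells, 629 to 3037 in BALB cells, 616 to 1481 in the IFN-γ-deficient transfer and 615 to 1251 in the IL-6-deficient transfer. Most of it was Ighm, and Cd79a and Cd79b read at most 24.1 on every array. Of mast cell and basophil markers, cells that answer to IL-3 and can make it, Kit fell by 1.38 ± 0.18 in SKG cells, and the sum of 7 was 157 to 230 in SKG cells, 333 to 485 in BALB cells, 296 to 409 in the IFN-γ-deficient transfer and 138 to 188 in the IL-6-deficient transfer. Kit read highest of the 7, at 74.5 to 407.3 over all arrays, and Gata2 read 21.6 to 57.0. Cpa3, Mcpt8, Fcer1a, Ms4a2 and Tpsb2 read at most 29.2 on every array. Whether such cells had a part in the Il3 values was not tested. Cd8b1, a CD8+ T cell marker, fell by 2.48 ± 0.43 in SKG cells, while Cd8a, the other gene of that list, was at 0.81 ± 0.29 (limma adjusted p = 0.072). Of 6 CD4+ T cell markers 1, Cd5, fell by 0.97 ± 0.18 there, and 0 macrophage or stromal markers passed in limma (1 at an unadjusted p under 0.05, Cd68). Without SKG replicate 3, 2 B cell markers and 1 CD4+ T cell marker rose. With the replicate block Cd3g passed as higher and Cd68 as lower (limma adjusted p = 0.00055 and 0.025). In the transfer comparison 0 markers of any of these lists passed in limma, beside 0.114% of all genes. At an unadjusted p under 0.05 there were 3, Blk, Kit and Col1a2. With the block, where 1.79% of all genes passed, Kit and Cd5 were higher. No NK cell marker was bright enough to test, with sums of 1.4 to 43.3 over all arrays.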

How the data were processed

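Values are 1 linear intensity per probe set and array as deposited by the authors. How they were normalized, and in which software, is not given in the sources used here. RNeasy extraction and in vitro transcription labelling are named per the labels' protocols. Medians of the deposited intensity lay between 15.7 and 27.7. Precision is limited by the number of arrays.

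Arrays of each fit were quantile normalized without 64 control probe sets as log2(intensity + 16), a scale that understates changes of dim genes. The brightest probe set over 12 arrays stood for a gene. The array's annotation gave 1 gene for 34958 probe sets, several for 932 and no symbol for 9211. Symbols were updated by gene ID to GRCm38.p6 for 34754 probe sets. Genes with a mean at or above the 40th percentile over probe sets were tested with limma 3.58.1 in R 4.3.3 (lmFit, eBayes with trend, two-sided, Benjamini-Hochberg, adjusted p under 0.05), each comparison on its 6 arrays and the difference between comparisons on all 12. The fits were tested on simulated data.

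The labels number replicates 1 to 3 in every group. Across genes, deviations from the group means of same-numbered arrays had correlations of 0.127, 0.200 and 0.333 for SKG with BALB cells, and of 0.461, 0.446 and 0.699 for the transfer groups. All exceeded 0.1, so the replicate number was used as a block in an alternative fit. The main fits hold no block, and blocked values are given where they change a call. Replicate 1 against replicate 2 gave 0.167 and 0.170, and 0.441 and 0.408, so any pairing rests mainly on replicate 3.

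The members and lists were chosen with earlier results of these data known. Named genes are the 4 cytokines, up to 4 passing genes of each list by smallest p (where fewer than 2 passed, up to 2 others), the 3 most correlated genes, and the nearest and up to 4 passing neighbours. Other cytokines described by replicate, the label-check genes, single genes at an unadjusted p, and Egr1, Jund, Junb and Fosl2 were named after their values were seen. Alternatives were other added constants, filters, normalizations, probe set rules, spread models, the replicate block and leaving out arrays.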

Additional observations from a re-analysis of the deposited data

Results flagged for a closer look

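The Csf2 difference between SKG and BALB cells ran opposite to that between the IFN-γ-deficient and the IL-6-deficient transfer, and the contrast of the 2 differences was 3.83 on the log2 scale (limma adjusted p = 0.00034). Csf2 was higher in 3 of 3 SKG arrays than in any BALB array. It was lower in 3 of 3 IFN-γ-deficient than in any IL-6-deficient transfer array. In the fit of all 12 arrays the transfer fall of Csf2 by itself did not pass (limma adjusted p = 0.21). Its call was also lost without some single arrays. The contrast tests the gap between the differences and does not show that each passes. On the normalized scale Il2 separated the groups of both comparisons too, and it passed in neither. The share of all genes that separate so was not counted. The comparisons share no array, and they differ in age, tissue, labelled stimulation, FR4 selection and transfer into hosts as well as genotype. Low Xist on the IFN-γ-deficient transfer arrays and on IL-6-deficient transfer replicate 3 is a further difference.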

How the results depend on the processing

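Over its alternatives Csf2 in SKG against BALB cells stayed higher and past the threshold (2.26 to 3.03), as did its contrast between the comparisons (3.53 to 4.30). With all 12 arrays in 1 fit Lif in SKG cells was -0.63 (limma adjusted p = 0.45), and in the transfer comparison Il3 was -1.77 (1.0) and Csf2 -1.28 (0.21). Without the intensity trend the transfer value of Csf2 was -1.31 (0.065). The replicate block gave -0.98 (0.0019) for Lif in the transfer comparison and 3.15 (0.026) for the Il3 contrast, and changed no other call of the 4 genes. Leaving out each array in turn, Il3 ranged from 0.58 to 2.77 in SKG cells, from -1.90 to -1.64 in the transfer comparison and from 2.36 to 4.52 in the contrast, and Csf2 in the transfer comparison from -1.37 to -1.24. The contrasts that passed in no setting changed sign: Il2 was -0.011 with trimmed mean scaling and -0.0027 to 0.066 with arrays left out, and Lif -0.30 to 0.998 with arrays left out and 1.70 on the low-Xist transfer arrays. On the low-Xist transfer arrays, an alternative chosen after seeing the data, Il3 was -1.83 and Csf2 -1.16, with 1 array left in 1 group. The replicate block moved the count of calls over all genes from 14 to 219 in the transfer comparison and from 999 to 3119 in the contrast. No call was reversed. The causes were not tested.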
